A study of Mus musculus with 3 samples.

Results

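The genes of mRNA deadenylation, decay and surveillance were taken from the arrays as the non-control probes whose gene name begins with Cnot, Upf, Smg, Exosc, Dcp1, Dcp2, Xrn1, Xrn2, Edc3, Edc4, Pan2 or Pan3, with a number after the first 3 of these. The names took 34 of 27745 genes and 88 of 41174 probes. By role they were 5 scaffold and regulatory subunits of the CCR4-NOT complex, 5 deadenylase genes and 5 decapping genes. There were also 2 exonucleases that work from the 5′ end, 10 subunits of the RNA exosome and 7 genes of nonsense-mediated decay. The deadenylase genes include Pan3, which encodes a partner of the PAN2 deadenylase. Stromal cells grown from lymph nodes of BALB/c mice had received 400 pmol of Eif4g3 siRNA or of control siRNA by lipid transfection, with new medium at 24 h and harvest at 48 h. Eif4g3 encodes eIF4GII, a scaffold protein that links the mRNA cap to the ribosome. For each siRNA, 7 plates were pooled and separated on a sucrose gradient of 10% to 60%, and gradient fractions were combined into a top, a light polysome and a heavy polysome pool. Each pool was compared on 1 array, with RNA of Eif4g3 siRNA cells in red (Cy5) and RNA of control siRNA cells in green (Cy3). With 1 array per pool, no dye swap and 1 pool of plates per siRNA, no test was possible and array and fraction cannot be told apart.

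Most mRNAs are taken apart in steps. The poly(A) tail is shortened by the PAN2-PAN3 and CCR4-NOT deadenylases, after which the body is degraded either from the 5′ end, once DCP2 and its partners have removed the cap, or from the 3′ end by the RNA exosome. Nonsense-mediated decay is a surveillance route in which the helicase UPF1, its partners UPF2, UPF3A and UPF3B and the SMG proteins send mRNAs with a premature stop codon into the same decay pathways. The measurements here concern the mRNAs that encode these proteins, not decay itself. They give the signal of each mRNA in each gradient pool, relative to the other mRNAs there, and how that differed between siRNAs.

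The start of an mRNA is where the cap complex assembles, and mRNAs of the 5′ terminal oligopyrimidine class begin with a C followed by an unbroken run of C or T. The windows around annotated start sites were therefore read from RefSeq (GRCm38.p6), with 15 bases before and 15 bases from the start. Capitals mark the first 5 bases from the start. The first pair of windows are the ones that begin with C and at least 4 further pyrimidines, and the others belong to genes whose values lay at an end of a ranking.
Cnot10, chr9:114640186-114640215, minus strand: ccggaagtagcgtctCCCTTggccgctacg
Cnot8, chr11:58104294-58104323, plus strand: acagaggctacggggCTCTCggtccccgga
Upf1, chr8:70353265-70353294, minus strand: accgcagcggtggcgGCGACggcggttcct
Xrn2, chr2:147012984-147013013, plus strand: cggtggtggtatgacGTAACttccggccgc
Edc4, chr8:105880866-105880895, plus strand: ccgggagcgaaggtcAGTGGgaccggaagt
Edc3, chr9:57708554-57708583, plus strand: taggccgagacgcggGGGCGtttccggcgg
Exosc10, chr4:148558698-148558727, plus strand: aggagggctccgcgcTTCCGgtgtgagcgc
Exosc6, chr8:111056324-111056353, plus strand: caagggcagcccagcAGGCGgaagtagctc
Of the 34 genes, 28 had at least 1 start in the table, with 35 starts in all. The pattern of a C and at least 4 C or T bases, read on the strand of the gene and at the start itself, was present at 2 of the 35 starts (5.71%), against 823 of 32851 starts (2.51%) over all genes. Cnot8 has 4 annotated starts, and the other 3 do not carry the pattern. Exosc10 has 2, of which 1 is shown. A match in these letters is a description of the annotated start and does not say which start these cells used.

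The targeted mRNA itself was lower on every array: Eif4g3 had a log2 ratio (Eif4g3 siRNA over control siRNA) of -0.43 ± 0.16 (top), -1.06 ± 0.16 (light) and -1.77 ± 0.19 (heavy), where ± is the scanner software's error of the spot, which covers no biological replication. Of the fibroblastic marker genes of lymph node stroma, 13, 13 and 14 of 14 were measured in the top, light and heavy pools. The leukocyte list had 0, 3 and 3 of 8 measured, with Ptprc not above background on any array, and the endothelial list had 0, 2 and 2 of 5, with Pecam1 and Cdh5 not above background. In such bulk RNA, fewer cells of a type and less RNA per cell cannot be told apart. The top array was the dimmest, with 14339 probes measured in both channels, against 20659 for the light array and 21248 for the heavy one. Only probes flagged by the scanner software as clearly brighter than background, in the red and the green channel alike, are called measured. The channels were uneven before normalization. The upper quartile of signal minus background was 39.6 in red and 40.5 in green on the top array. It was 686 and 288 on the light array, and 367 and 1078 on the heavy array. The part of this imbalance, opposite in light and heavy, in the normalized ratios was not tested. Of the 34 decay genes, 32 were measured in the top pool and 34 in each of the others. Xrn1 and Edc3 were not well above background in either channel of the top array. In the top pool 23 of the measured genes rested on 1 probe, and 13 did in the light and in the heavy pool.

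Most decay genes differed little between the siRNAs on any array. A gene was called at 1.5-fold, a log2 ratio of 0.585 in either direction. In the top pool 0 of 32 genes were higher and 0 lower, where 2.76% of the 10944 measured genes were higher and 2.52% lower. In the light pool 1 of 34 was higher, Xrn2, and 0 were lower, where 3.48% of 14095 genes were higher and 2.63% lower. In the heavy pool 0 of 34 were higher and 1 was lower, Upf1, where 3.52% of 14404 genes were higher and 3.71% lower. The decay genes thus passed the line at a share near or below that of all measured genes. The median log2 ratio of the decay genes was 0.05 (top), 0.02 (light) and -0.08 (heavy), against 0.0016, 0.02 and -0.01 over all measured genes. In the top pool the ratios ran from -0.29 for Exosc3 to 0.52 for Pan3, in the light pool from -0.36 for Exosc9 to 0.59 for Xrn2 and in the heavy pool from -0.76 for Upf1 to 0.43 for Cnot7.

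**Figure D1:**
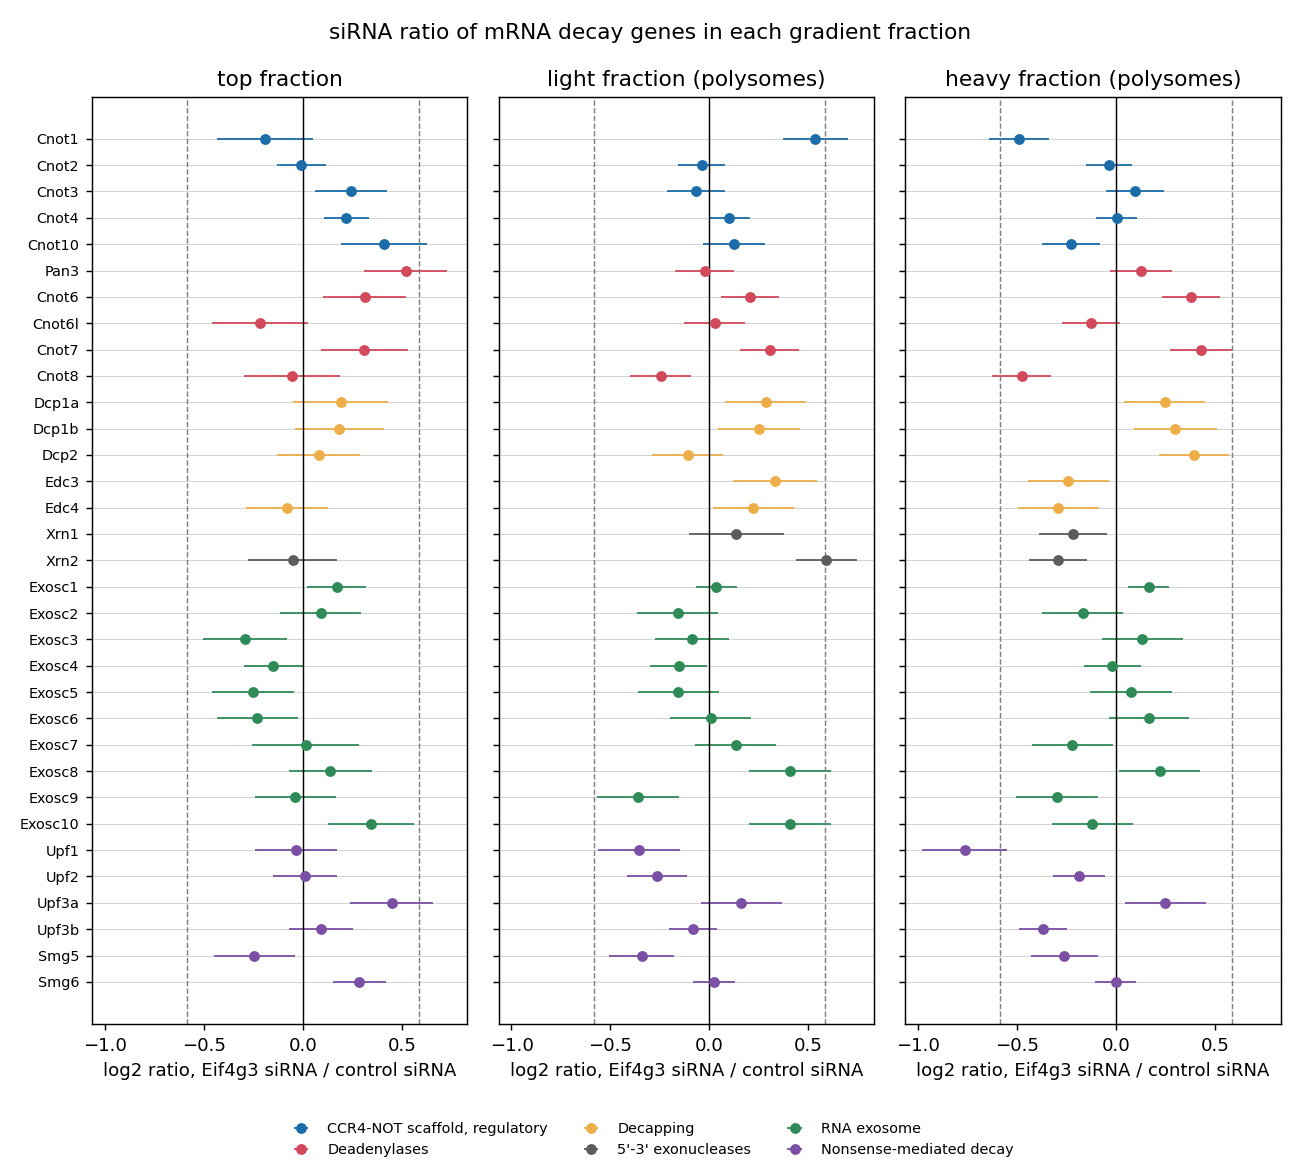
Log2 siRNA ratio (Eif4g3 siRNA over control siRNA) of decay genes (rows, coloured by role) in the top, light and heavy pools. Points are means over the measured probes of a gene, bars are the software's spot error, and dashed lines mark 1.5-fold. Xrn2 in the light pool (0.59) and Upf1 in the heavy pool (-0.76) are the points beyond the lines, and Xrn1 and Edc3 have no point in the top pool.

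Subtracting the top ratio from the heavy ratio shows how the split of an mRNA between these pools differed between siRNAs. A value below 0 means a lower heavy to top signal in Eif4g3 siRNA cells than in control siRNA cells, relative to the other mRNAs. The ratios of each array were centred by the normalization, so a shift common to most mRNAs does not show. Unfractionated RNA was not analysed here, so on 1 array a different amount of an mRNA and a different position in the gradient cannot be told apart. Of the 32 decay genes with a probe measured on both arrays, 2 were lower by over 1.5-fold, Upf1 and Cnot10, and 0 were higher, where 6.02% of 10723 genes were lower and 7.37% higher. The median difference was -0.17, against -0.0003 over all genes, with 20 genes below 0 and 12 above. The roles were unlike each other in this value. All 7 genes of nonsense-mediated decay and all 5 scaffold and regulatory genes of CCR4-NOT lay below 0, with medians of -0.25 and -0.22, where 50.1% of all genes lay below 0. For nonsense-mediated decay this held under all 7 alternatives run (5 of 5 measured genes with bright probes only). Among these alternatives, the deposited value table repeats the software's ratio. Of the scaffold genes, 3 of 5 lay below 0 with the brightest probe of each gene and 1 of 2 with bright probes only. Upf1, Smg6, Upf3b, Cnot1, Cnot4 and Cnot10 lay further from 0 than their combined spot error. The other genes of these roles lay within that error or about at it. The deadenylase genes had 3 above and 2 below, the decapping genes 3 above and 1 below and the exosome genes 6 above and 4 below. For heavy minus light the median was -0.0029, against -0.02 over all genes, and 2 of 34 genes were lower by over 1.5-fold, Cnot1 and Xrn2, and 0 were higher, where 5.84% of 13689 genes were lower and 2.68% higher. For light minus top 0 of 32 were lower and 0 higher, where 4.23% of 10684 genes were lower and 4.74% higher. These differences share arrays with each other, so that they do not count as separate evidence.

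**Figure D2:**
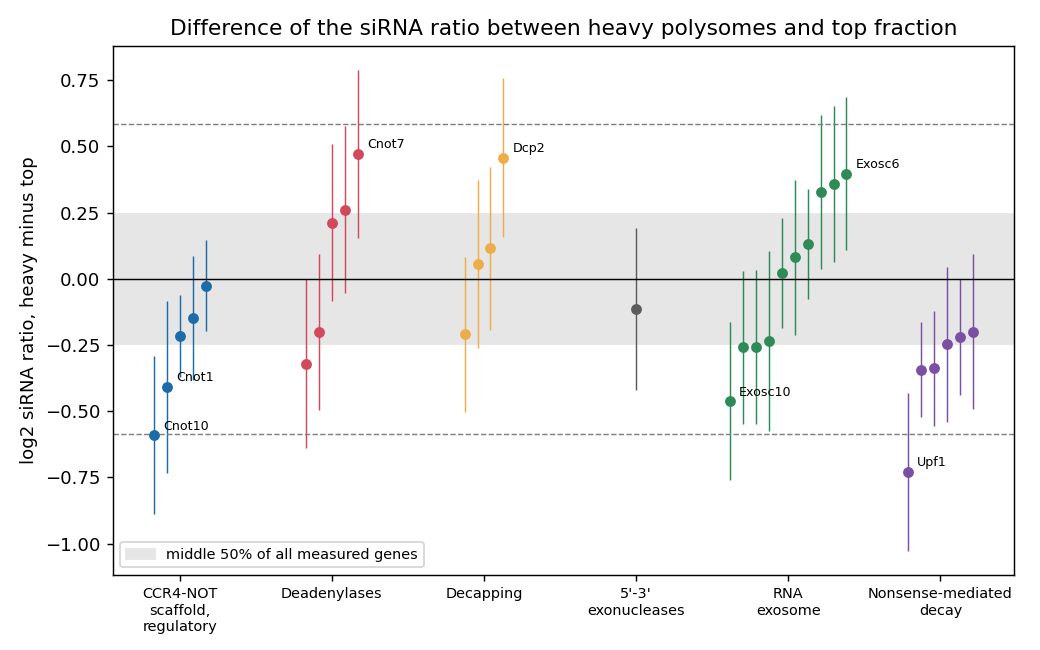
Difference of the log2 siRNA ratio, heavy minus top pool, for decay genes grouped by role (horizontal axis), each point 1 gene with the combined spot error. The grey band holds the middle 50% of all measured genes and dashed lines mark 1.5-fold. The scaffold and the nonsense-mediated decay columns lie wholly below 0, down to -0.59 for Cnot10 and -0.73 for Upf1, and the other columns with more than 1 gene lie on both sides.

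Among the surveillance genes, Upf1 showed the largest difference. Upf1 encodes the RNA helicase on which nonsense-mediated decay depends. Its log2 signal was 9.89 in Eif4g3 siRNA cells and 9.93 in control siRNA cells in the top pool, 8.92 and 9.28 in the light pool, and 9.27 and 10.04 in the heavy pool. Signals are normalized means over the probes measured in a pool, so pools are compared only through probes that both share. The channels were nearly equal in the top and furthest apart in heavy polysomes. The log2 ratios were -0.03 ± 0.21, -0.36 ± 0.21 and -0.76 ± 0.21 (1.70-fold lower in the heavy pool), the last at percentile 1.31 of the measured genes. Heavy minus top was -0.73 ± 0.30, a 1.66-fold difference. Upf1 has a single probe, on the minus strand of chromosome 8 from 73260722 to 73260781 (mm8), so no second probe checks this value. Both its heavy ratio (-0.99 to -0.74) and its heavy minus top difference (-0.96 to -0.71) stayed past 1.5-fold under all 7 alternatives run. The alternatives that filter or pick probes could not change a value from a single measured probe. The deposited value table repeats the software's ratio. Only the offset, the software's ratio and median centring were thus able to move these values.

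In the light and heavy pools the UPF partners of Upf1 were less far from 0. Upf2, which encodes the bridge between UPF1 and the UPF3 proteins, had log2 ratios of 0.01 ± 0.16 (top), -0.27 ± 0.15 (light) and -0.19 ± 0.13 (heavy). Its measured probes in the heavy pool gave 0.02, -0.14 and -0.44. Upf3b, whose protein tethers the exon junction complex to the UPF proteins, had 0.09 ± 0.16, -0.08 ± 0.12 and -0.37 ± 0.12. Its paralog Upf3a lay above 0 in all 3 pools, at 0.45 ± 0.21, 0.16 ± 0.20 and 0.25 ± 0.20. The pair differed by 0.62 ± 0.24 in the heavy pool (Upf3a minus Upf3b). Heavy minus top was below 0 for both, with values of -0.34 ± 0.22 for Upf3b and -0.20 ± 0.29 for Upf3a. The 3 heavy-pool probes of Upf3b gave -0.62, -0.09 and -0.40, so that its size depended on the probe.

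The SMG genes belong to the same group. Smg5, which encodes an adaptor that brings decay enzymes to UPF1, had -0.25 ± 0.21, -0.34 ± 0.16 and -0.26 ± 0.17 in the top, light and heavy pools, below 0 throughout. The top value of Smg5 came from 1 probe. Its probes gave -0.10 ± 0.25 and -0.58 ± 0.21 in the light pool, and -0.03 ± 0.27 and -0.49 ± 0.21 in the heavy pool. The size thus depended on the probe. Smg6, the endonuclease that cuts surveillance targets near the stop codon, had 0.29 ± 0.13, 0.02 ± 0.11 and -0.0009 ± 0.10. In the top pool its 3 measured probes disagreed: the probe at the 5′ side of the gene gave 0.75 ± 0.24, and the pair further along the gene gave -0.07 ± 0.23 and 0.18 ± 0.22. In the heavy pool itself 6 of the 7 surveillance genes lay below 0, and 4 of 7 when the arrays were centred on their medians without loess, the correction for dye trends with signal. For light minus top all 7 lay below 0, from -0.34 for Smg5 to -0.14 for Upf3b, with a median of -0.29 against 0.0039 over all genes (6 of 7 with median centring). Heavy minus light did not show this, with 4 above 0 and 3 below. The top array enters both of the differences in which the group lay below 0, and its part in them was not tested.

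The scaffold of CCR4-NOT is Cnot1, the large protein that holds the deadenylases and the regulatory subunits together. Cnot1 had log2 signals of 8.16 in Eif4g3 siRNA cells and 8.36 in control siRNA cells in the top pool, 8.03 and 7.49 in the light pool and 8.06 and 8.55 in the heavy pool. The Eif4g3 siRNA channel was the higher one in light polysomes and the lower one in heavy polysomes. The ratios were -0.19 ± 0.24, 0.53 ± 0.16 and -0.49 ± 0.15, and heavy minus light was -1.02 ± 0.22, a 2.03-fold difference. It was the 1 decay gene past 2-fold in that difference, where 0.628% of all genes were lower by 2-fold. The light value rested on 1 of the 2 probes: the probe at 98615226 to 98615285 on the minus strand of chromosome 8 (mm8) gave 1.01 ± 0.25, and the brighter probe at 98608843 to 98608902 gave 0.06 ± 0.20. In the heavy pool both probes were below 0, at -0.38 ± 0.21 and -0.60 ± 0.21. With the brighter probe alone, heavy minus light was -0.66, past 1.5-fold and short of 2-fold.

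Cnot10 encodes a subunit bound at the N-terminal end of CNOT1. It had log2 signals of 9.35 in Eif4g3 siRNA cells and 8.94 in control siRNA cells in the top pool, 7.52 and 7.40 in the light pool and 7.67 and 7.90 in the heavy pool. The ratio was highest in the top pool and lowest in the heavy pool, at 0.41 ± 0.22, 0.12 ± 0.15 and -0.23 ± 0.15. Over the 1 probe measured on both arrays, heavy minus top was -0.59 ± 0.30, a 1.51-fold difference that lay just past the line. Cnot10 is 1 of the genes whose annotated start, shown above, opens with a C and pyrimidines. Cnot2, Cnot3 and Cnot4 were closer to 0. Cnot2, which binds CNOT1 together with CNOT3, had 3 measured probes on each array and stayed near 0, at -0.0084 ± 0.12, -0.04 ± 0.12 and -0.04 ± 0.12. Cnot3 had 0.24 ± 0.18, -0.07 ± 0.14 and 0.10 ± 0.15. Cnot4, an E3 ubiquitin ligase that associates with the complex, had 0.22 ± 0.11, 0.10 ± 0.10 and 0.0042 ± 0.10.

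The paired deadenylase subunits differed from each other. Cnot7 and Cnot8 encode the interchangeable exonucleases of the DEDD type, of which a complex holds 1 at a time. Cnot7 had log2 signals of 9.30 in Eif4g3 siRNA cells and 8.99 in control siRNA cells in the top pool, 8.04 and 7.73 in the light pool and 7.53 and 7.10 in the heavy pool. Cnot8 had 8.14 and 8.19 in the top pool, 7.57 and 7.82 in the light pool and 7.81 and 8.29 in the heavy pool, again with Eif4g3 siRNA cells before control siRNA cells. The Eif4g3 siRNA channel was thus higher for Cnot7 and lower for Cnot8 in all 3 pools. The ratios were 0.31 ± 0.22, 0.30 ± 0.15 and 0.43 ± 0.16 for Cnot7, and -0.05 ± 0.24, -0.25 ± 0.15 and -0.48 ± 0.15 for Cnot8. Cnot7 minus Cnot8 was 0.36 ± 0.33, 0.55 ± 0.21 and 0.90 ± 0.22, widest in the heavy pool. Neither gene passed 1.5-fold alone. These paralogs were compared for their shared role, and their difference has no replicate check. In the heavy pool the probes of Cnot8 gave -0.58 and -0.38, and those of Cnot7 gave 0.78 and 0.07, so the size for Cnot7 rested on 1 probe.

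Cnot6 and Cnot6l, which encode the alternative deadenylases of the EEP type, differed in the same sense, by less than Cnot7 and Cnot8 in the light and heavy pools and by more in the top pool. Cnot6 had 0.31 ± 0.21 (top), 0.21 ± 0.15 (light) and 0.38 ± 0.15 (heavy). Cnot6l had -0.22 ± 0.24, 0.03 ± 0.15 and -0.13 ± 0.15, and its probes gave -0.25 and 0.30 in the light pool. Cnot6 minus Cnot6l was 0.53 ± 0.32, 0.18 ± 0.21 and 0.51 ± 0.21, so that it lay within the spot error in the light pool. Pan3, the partner that carries the PAN2 deadenylase to the poly(A) tail, had the highest ratio of the decay genes in the top pool (0.52 ± 0.21, with log2 signals of 11.33 and 10.81 for Eif4g3 siRNA and control siRNA cells). In the light and heavy pools it had -0.02 ± 0.15 and 0.13 ± 0.16. Its top value came from 1 of its 5 probes. On the probe shared by both arrays heavy minus top was -0.20 ± 0.29, smaller than the gap between those 2 means, which rest on different probes.

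**Figure D3:**
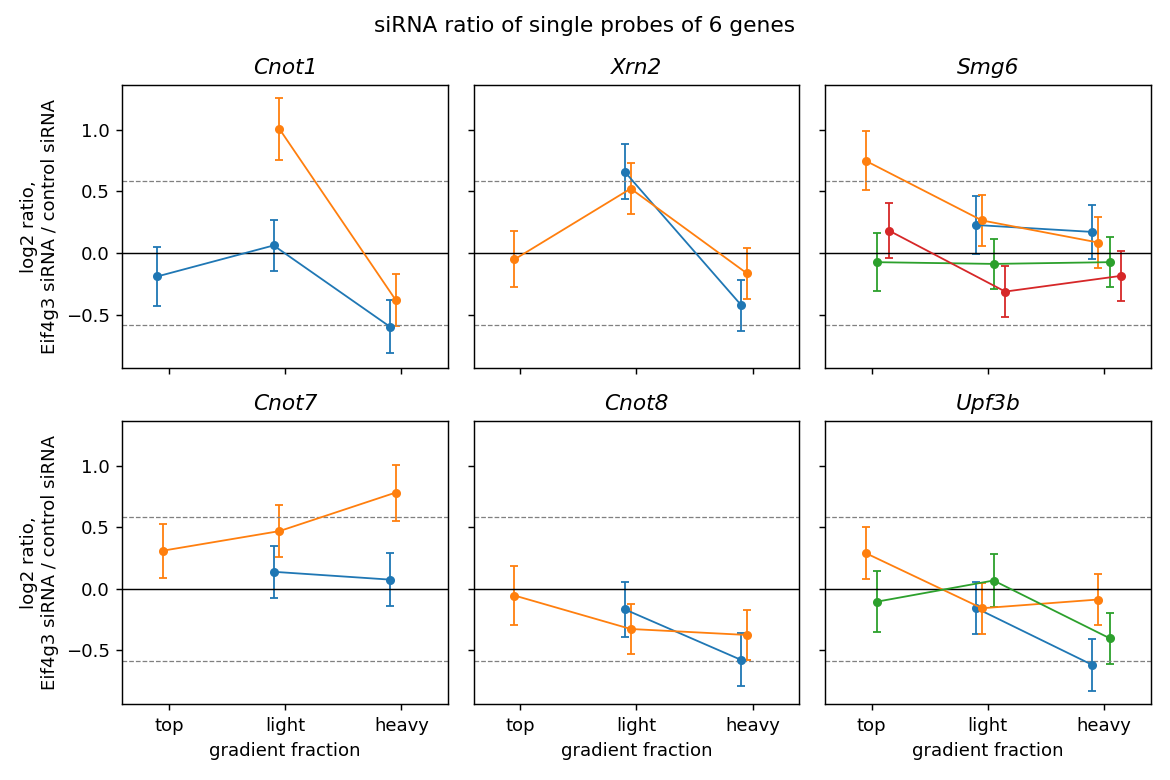
Log2 siRNA ratio (Eif4g3 siRNA over control siRNA) of each measured probe of 6 decay genes (panels) in the top, light and heavy pools, with the spot error as bars, 1 colour per probe within a panel and dashed lines at 1.5-fold. Both probes of Xrn2 and of Cnot8 lie on the same side of 0 in the light and in the heavy pool. The light value of Cnot1 (1.01 and 0.06), the heavy value of Cnot7 (0.78 and 0.07) and the top value of Smg6 (0.75, -0.07 and 0.18) differ between probes.

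Of the decapping genes, the paralogs Dcp1a and Dcp1b had ratios above 0 in all 3 pools. Dcp1a and Dcp1b encode alternative activators of DCP2. Dcp1a had ratios of 0.19 ± 0.24, 0.28 ± 0.21 and 0.25 ± 0.21, and Dcp1b had 0.18 ± 0.23, 0.25 ± 0.21 and 0.30 ± 0.21. The pair differed by less than the spot error on every array, with differences of 0.0058, 0.03 and -0.05 (Dcp1a minus Dcp1b). Dcp2, the decapping enzyme, had 0.08 ± 0.21, -0.11 ± 0.18 and 0.39 ± 0.18. Heavy minus light for Dcp2 was the highest of all 34 genes, 0.50 ± 0.25, with heavy signals of 7.16 in Eif4g3 siRNA cells and 6.76 in control siRNA cells.

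The enhancers of decapping Edc3 and Edc4, which build the decapping assembly around DCP1 and DCP2, both had a ratio above 0 in the light pool and below 0 in the heavy pool. Edc3 had log2 signals of 7.49 in Eif4g3 siRNA cells and 7.16 in control siRNA cells in the light pool, and 7.56 and 7.81 in the heavy pool. Edc4 had 9.68 and 9.76 in the top pool, 9.03 and 8.81 in the light pool and 9.53 and 9.83 in the heavy pool. For both genes the Eif4g3 siRNA channel was the higher one in the light and the lower one in the heavy pool. The ratios were 0.33 ± 0.21 and -0.24 ± 0.21 for Edc3, and 0.22 ± 0.20 and -0.29 ± 0.21 for Edc4, which had -0.08 ± 0.21 in the top pool. Heavy minus light was -0.57 ± 0.30 for Edc3 and -0.51 ± 0.29 for Edc4, each over 1 probe and short of 1.5-fold.

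Of the exonucleases, Xrn1 is the cytoplasmic enzyme that degrades decapped mRNA, and Xrn2 is its nuclear relative, known for its part in ending transcription. Xrn2, too, had a ratio above 0 in the light and below 0 in the heavy pool. It had log2 signals of 8.42 in Eif4g3 siRNA cells and 8.47 in control siRNA cells in the top pool, 8.68 and 8.09 in the light pool and 8.95 and 9.24 in the heavy pool. The ratios were -0.05 ± 0.23, 0.59 ± 0.15 and -0.29 ± 0.15. The light value, 1.51-fold higher, was the only one of the 34 past the line in that pool and lay just beyond it. Its probes gave 0.66 ± 0.22 and 0.52 ± 0.21, so with the brighter probe alone it was short of the line. Heavy minus light was -0.89 ± 0.21, a 1.85-fold difference. Xrn1 had 0.14 ± 0.24 in the light and -0.22 ± 0.17 in the heavy pool, with heavy minus light of -0.35 ± 0.30. The light value lay within its spot error, and both signs turned with median centring in place of loess, to -0.40 in the light and 0.19 in the heavy pool.

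The RNA exosome is a barrel of catalytically inactive subunits (Exosc4 to Exosc9) with a cap of RNA-binding subunits (Exosc1 to Exosc3), to which the nuclease Exosc10 attaches in the nucleus. Of its 10 genes, 5 lay above 0 and 5 below in each pool, with medians of -0.01, -0.04 and 0.03. The split moved with the processing: in the light pool it was 7 above and 3 below with median centring in place of loess, and 3 above and 7 below with the scanner software's ratio. With median centring it was 3 above and 7 below for heavy minus top and 2 above and 8 below for heavy minus light. With loess as used here it was 6 above and 4 below for both differences. All genes also lay lower with median centring. For heavy minus top the exosome median went from 0.05 with loess to -0.12, and that of all genes from -0.0003 to -0.09. For heavy minus light the exosome median went from 0.10 to -0.29, and that of all genes from -0.02 to -0.10. All genes thus moved in the same direction, and the exosome genes moved further in both differences. The cause of this was not tested. None of the 10 exosome genes passed 1.5-fold in a pool or in a difference between pools with loess. Within the barrel and cap, Exosc3, Exosc5 and Exosc6 shared an order, lowest in the top and highest in the heavy pool. Exosc3 had -0.29 ± 0.21, -0.09 ± 0.19 and 0.13 ± 0.21, Exosc5 had -0.25 ± 0.21, -0.16 ± 0.20 and 0.08 ± 0.20, and Exosc6 had -0.23 ± 0.21, 0.01 ± 0.20 and 0.17 ± 0.20. With median centring, heavy minus light was below 0 for Exosc5 (-0.22) and Exosc6 (-0.29), so their order did not hold there. Exosc9 had the lowest ratio of the decay genes in the light pool, -0.36 ± 0.21, and -0.30 ± 0.20 in the heavy pool. Exosc10 had its lowest ratio in the heavy pool, with 0.34 ± 0.22 (top), 0.41 ± 0.21 (light) and -0.12 ± 0.20 (heavy). Heavy minus top ran from -0.46 ± 0.30 for Exosc10 to 0.40 ± 0.29 for Exosc6, so the largest of these values were about as large as 1 to 2 spot errors.

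The control channel alone shows where these mRNAs lay in the gradient of control siRNA cells. Each value is a difference of log2 signals of 1 gene between arrays after the arrays were set to a common distribution, so it is relative to the other mRNAs on the array and cannot be compared as an amount. Heavy over top in control siRNA cells passed 2-fold upwards for 2 and downwards for 3 of 32 decay genes, where 15.4% of 10723 genes passed upwards and 20.6% downwards. Xrn2 (1.61) and Cnot6l (1.21) lay towards heavy polysomes, and Dcp2 (-2.00), Cnot7 (-1.66) and Exosc1 (-1.40) lay towards the top. Without the filter on dim probes Cnot7 was -0.99, short of 2-fold. The Exosc1 call rested on 1 of its 2 shared probes, with control signals of 9.25 (top) and 7.26 (heavy). The brighter probe had 10.37 and 9.56, short of 2-fold. Probes of Exosc1 not measured in the top pool were higher in the heavy pool (6.70 and 7.36, and 6.23 and 7.14). Light over top passed 2-fold for 3 of 32, Cnot6 (1.35) on the light side and Upf3b (-1.36) and Exosc9 (-1.13) on the top side, where 6.84% of 10684 genes passed on the light side and 11% on the top side. These 3 calls were lost without the filter on dim probes (0.71 for Cnot6, -0.57 for Upf3b and -0.65 for Exosc9), and that of Exosc9 also with scaling to the 75th percentile (-0.45). Heavy over light passed 2-fold for 3 of 34, Xrn2 (1.16), Cnot1 (1.06) and Edc4 (1.02), all on the heavy side, where 3.81% of 13689 genes passed on that side and 5.06% on the light side. Xrn2 and Edc4 stayed past 2-fold under all 5 alternatives run, and Cnot1 was 0.56 with its brighter probe alone and 0.71 without the filter on dim probes. Edc4 has 1 probe, so the alternatives that filter or pick probes could not change its value. The position depends on the scaling, since the median over all genes was -0.07 for heavy over top here and -0.43 with the software's processed signals.

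The same position can be read in Eif4g3 siRNA cells from the red channel. Heavy over light was 0.27 in Eif4g3 siRNA cells and 1.16 in control siRNA cells for Xrn2, 0.04 and 1.06 for Cnot1, and 0.51 and 1.02 for Edc4. For Exosc10 it was 0.24 and 0.77, for Upf1 0.35 and 0.76, and for Edc3 0.07 and 0.64. At the other end it was -0.30 in Eif4g3 siRNA cells and -0.81 in control siRNA cells for Dcp2, -0.47 and -0.65 for Cnot6, and -0.51 and -0.63 for Cnot7. The control value enters both the position and the siRNA ratio, so the values stand side by side and no relation between them was computed. The gap between the siRNA and control values of a gene is, by arithmetic, its difference of siRNA ratios between those pools. The gap therefore adds no evidence to the differences given above. For heavy over top, the surveillance genes were thus lower in Eif4g3 siRNA cells because they all lay below 0 in heavy minus top. It was -0.62 in Eif4g3 siRNA cells and 0.11 in control siRNA cells for Upf1, 0.15 and 0.39 for Smg5, -1.06 and -0.72 for Smg6, and -1.32 and -0.98 for Upf3b.

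**Figure D4:**
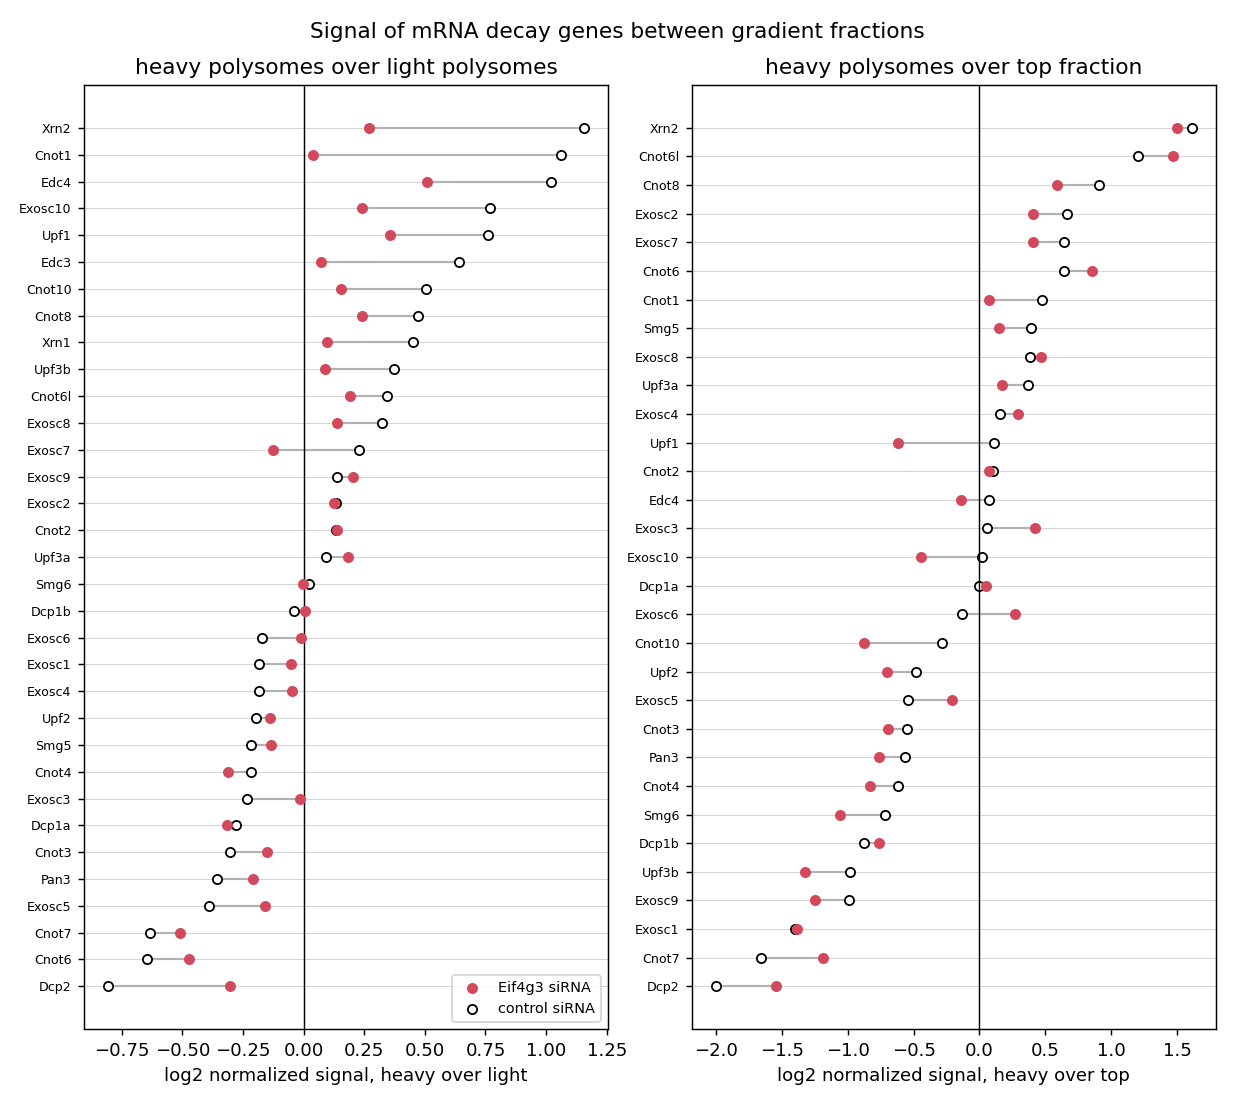
Log2 normalized signal of heavy over light polysomes (left) and of heavy polysomes over the top pool (right) for decay genes, in Eif4g3 siRNA cells (red) and control siRNA cells (open), ordered by the control value. The left panel runs from Xrn2 (0.27 in Eif4g3 siRNA cells and 1.16 in control siRNA cells) to Dcp2 (-0.30 and -0.81), and a grey line joins the channels of a gene.

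The genes that work with these factors were listed by their known roles: cofactors of deadenylation, decapping and the exosome, adaptors that recruit CCR4-NOT, the exon junction complex, release factors and Argonaute proteins. Of 53 such genes, 50 were on the array under the listed name. In the top pool 0 were higher and 1 of 44, Magoh (-0.86), was lower by over 1.5-fold, in the light pool 1 was higher and 3 of 50 were lower, and in the heavy pool 0 were higher and 4 of 50 were lower, shares to be set against those of all genes given above. In the light pool Eif4a3, the helicase core of the exon junction complex, was higher (0.93), and Ddx6, a helicase of decapping (-0.82), and Tob2 (-0.80) and Btg2 (-0.64), adaptors of the CCR4-NOT deadenylases, were lower. In the heavy pool the lower ones were the exosome helicases Skiv2l (-0.69) and Skiv2l2 (-0.60), the CCR4-NOT partner Tnks1bp1 (-0.62) and Angel1 (-0.61). Skiv2l had a ratio of 0.41 in the light pool, and heavy minus light was -1.10. For heavy minus top, 3 of 44 were higher and 3 lower, a share near that of all genes. Higher were Magoh of the exon junction complex (0.87), the decapping factor Lsm1 (0.63) and Btg3 (0.62), and the lower ones were Tnks1bp1 (-0.94), Tob2 (-0.66) and Angel1 (-0.65). The median heavy ratio of this wider list was -0.08, the same to 2 decimals as that of the 34 genes.

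The array lists 6 genes of the same families under older names, which the name rule did not take. Of these, Cnot9 (listed as Rqcd1) was also among the partner genes counted above. Smg9, a cofactor of the kinase SMG1, is present as 1500002O20Rik and had ratios of -0.04 ± 0.21, -0.46 ± 0.21 and -0.64 ± 0.21 in the top, light and heavy pools. Its order was that of Upf1, with heavy minus top of -0.60 ± 0.30 over 1 probe. Smg1, the kinase that phosphorylates UPF1, is present as 2610207I05Rik and had 0.32 ± 0.17, 0.58 ± 0.15 and -0.12 ± 0.13, with heavy minus top of -0.47 ± 0.23. Its heavy minus light was -0.73 ± 0.21, a 1.65-fold difference, where 5.84% of all genes were lower by over 1.5-fold. Smg8 was measured in the heavy pool alone, at 0.35 ± 0.22. Cnot11 and Cnot9 had 0.29 ± 0.18 and 0.13 ± 0.21 in the light pool and -0.10 ± 0.15 and -0.27 ± 0.21 in the heavy pool, and Pan2 had 0.06 ± 0.21 and -0.29 ± 0.21. These 3 were not measured in the top pool, and all 3 had the lower ratio in the heavy pool.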

How the data were processed

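Agilent Feature Extraction 10.5.1.1 turned each scan into linear intensities, per the file headers, and these stand in the deposited files beside the software's log10 ratio of the channels and its spot error. The deposited value table holds log2 ratios that matched the software's ratio within 3.5e-06 for measured probes, with column medians of -0.09, -0.01 and 0.22. Probe coordinates are mm8 (NCBI build 36), per the file headers.

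Ratios were computed with limma 3.58.1 in R 4.3.3 (normexp, offset 50, loess with control spots at weight 0, outlier spots left out), and channel signals were then set to a common distribution with Aquantile. The offset draws ratios of dim spots towards 0: the slope on the software's ratio was 0.579, 0.725 and 0.723 for top, light and heavy, so spot errors, which were not rescaled, are wide for these ratios. A probe was measured when well above background in both channels, and a gene is the mean of its measured probes. Differences between pools use the probes measured on both arrays. The steps were tested on simulated data. Members and lists were chosen with earlier results of these data known. Detailed values were given for members past 1.5-fold, for the 3 highest and 3 lowest of each array and of heavy minus top, and for paralog pairs, except that 1 member, which enters the counts and medians, is not reported here by itself. Alternatives were other offsets, ratio sources, centring, probe filters and scalings.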

Additional observations from a re-analysis of the deposited data

Results flagged for a closer look

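In 5 genes the siRNA ratio lay on opposite sides of 0 in 2 pools, by more than the spot error on both arrays. The share of all measured genes that meet this rule is not given. The count therefore does not set the decay genes apart from other genes. Cnot1 had 0.53 in the light and -0.49 in the heavy pool. Xrn2 had 0.59 in the light and -0.29 in the heavy pool. Edc3 had 0.33 and -0.24, and Edc4 had 0.22 and -0.29, for the same pools. Cnot10 had 0.41 in the top and -0.23 in the heavy pool. With 1 array per pool the difference was not tested for any of these genes.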

How the results depend on the processing

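No paired analysis was possible because each pool had 1 array and no replicate. The counts below are small, so a change of 1 gene moves most of them by over 1.5 times. Shares of all genes past the line under each alternative are not given. A higher count below is therefore no result about the decay genes in particular. Without the offset, 2 genes passed 1.5-fold in each of the top, light and heavy pools and in light minus top, and 5 in heavy minus light. With the scanner software's ratio, and likewise with the authors' deposited value table, 5, 2 and 2 passed in the top, light and heavy pools, 5 in heavy minus top, 5 in heavy minus light and 3 in light minus top, where the median was -0.21. With median centring in place of loess, 2 passed in the light and 3 in the heavy pool, 4 in heavy minus top, 9 in heavy minus light (median -0.22, with all genes at -0.10) and 2 in light minus top (all genes at 0.13). Without the filter on dim probes, 1 passed in heavy minus top and 1 in light minus top. With bright probes only, 1, 0 and 2 passed in the top, light and heavy pools, 1 in heavy minus top and 1 in light minus top (median -0.23). With the brightest probe of a gene, 1, 0 and 3 passed in the top, light and heavy pools, and 1 in light minus top. With the genes under older names, an alternative chosen after the gene names were seen, 2 passed in the heavy pool. For the position in control siRNA cells, 9 genes passed 2-fold in heavy over top and 6 in light over top without the offset. With the software's processed signals these were 12 and 6, and 6 in heavy over light (all genes at -0.43, -0.22 and -0.07). With scaling to the 75th percentile, 9 passed in heavy over top and 5 in heavy over light (median -0.24, all genes at -0.30), and without the dim-probe filter 0 passed in light over top. The cause of these changes was not tested. Of the other medians and counts, 58 and 21 moved by less than the spread between probes or by less than 1.5 times. Of single values of named genes, 196 moved by more than that spread under an alternative and 1067 did not, and no called value changed sign. Light Xrn2 ran from 0.52 to 0.74 and heavy minus top Cnot10 from -0.80 to -0.30, the last without the dim-probe filter. The number of arrays limits the precision.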
